A study of Mus musculus with 2 samples.

Results

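Venous endothelial cells were studied in single-cell RNA profiles of the mouse dentate gyrus at postnatal day 30. A cell was a member when it passed an endothelial gate and held at least 3 transcript molecules (unique molecular identifiers, UMIs) over Slc38a5, Nr2f2, Lcn2 and Vcam1, and more of these than of the arterial genes Gkn3, Bmx, Sema3g, Efnb2 and Hey1. The gate asked for at least 8 UMIs over Cldn5, Flt1, Pecam1 and Cdh5, and for at most 2 UMIs in each of 5 gene pairs that mark pericytes, smooth muscle, microglia, astrocytes and oligodendrocytes. In all, 435 cells were members, of 1650 endothelial cells and 16636 cells past the quality filters.

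The study compared a control (Nestin-Cre Tg, Phf2+/+) with a conditional knockout (Nestin-Cre Tg, Phf2flox/flox) of the histone demethylase gene Phf2, with 4 mice given for each genotype. Both genotypes carry the Nestin-Cre transgene (B6.Cg-Tg(Nes-cre)1Kln/J), whose promoter is used to drive Cre in neural progenitors and their descendants. The brains were perfused with saline before the dentate gyrus was dissociated into single cells. The data form 1 matrix with 2 barcode suffixes, called library 1 and library 2 here; nothing in the labels says which suffix is which genotype, or whether the mice of a genotype were pooled. No direction by genotype is therefore drawn, and values are given for library 1 and then library 2.

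In brain vessels, endothelial cells change gradually from arteries through capillaries to veins. Venules are the main site at which leukocytes adhere to and cross the vessel wall, and their endothelium responds strongly to cytokines. Nr2f2 encodes the transcription factor COUP-TFII, which holds Notch signalling down in veins. Slc38a5 encodes a glutamine transporter, Lcn2 an iron-siderophore-binding protein of the acute response, and Vcam1 an adhesion molecule for leukocytes.

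The members numbered 210 in library 1 and 225 in library 2. They made up 25.6% of the endothelial cells of library 1 (exact Clopper-Pearson 95% interval 22.7 to 28.7) and 27.1% of those of library 2 (24.1 to 30.3). These intervals, and the Poisson intervals used for expression levels, cover counting error only. With 1 library per genotype, no test between libraries was possible.

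The rule genes chose the cells, so their levels are a description. Slc38a5 (chromosome X, 8271381 to 8280179, mm10) stood at 348 and 380 CPM (a gene's UMIs scaled to the same total in every class and library) in the members. It stood at 39.1 and 45.7 CPM in capillary-leaning cells, which hold at most 1 UMI of the venous and at most 1 of the arterial rule genes. Arterial cells, chosen by the mirrored rule, held 32.1 and 31.2 CPM. Slc38a5 was seen in 204 of 210 and 216 of 225 members, but in 0.421% and 0.196% of the cells of a microglia gate, which served as the background of free RNA. The median depth was 14728 and 11170 UMIs in members, and 7940 and 7031 in the microglia gate.

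Nr2f2 (chromosome 7, 70351946 to 70366746) was at 217 and 225 CPM in members, against 10.6 and 12.6 CPM in capillary-leaning cells. Lcn2 (chromosome 2, 32384637 to 32387739) was at 87.0 and 140 CPM, but only 54 and 50 members held any of its UMIs. Vcam1 (chromosome 3, 116110020 to 116129688) was at 78.7 and 199 CPM, in 39 and 75 members. Arterial cells also held Vcam1, at 16.8 and 85.7 CPM, against 27.8 and 21.5 CPM in the microglia gate and 38.5 and 48.7 CPM in free RNA. The arterial rule gene Gkn3 had 0 UMIs in the members of library 1 and 2.09 CPM in those of library 2.

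The membership edge is a count of UMIs and not a gap between cells. There were 94 members with exactly 3 venous UMIs, with a median depth of 8272 UMIs, and 139 with 10 or more, with a median depth of 23058 UMIs. Just outside, 117 cells held 2 venous UMIs and fewer arterial ones, at a median depth of 6622 UMIs, and 69 cells held at least 3 venous UMIs but as many or more arterial ones. The rule uses raw counts, and members were deeper than the capillary-leaning cells, whose median depth was 6037 and 5888.5 UMIs. They were also deeper than the arterial cells of the mirrored rule, at 9711.5 and 9033 UMIs. The part of the rule in these depths was not tested. The plot of rule gene UMIs by cell shows both edges.

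**Figure D1:**
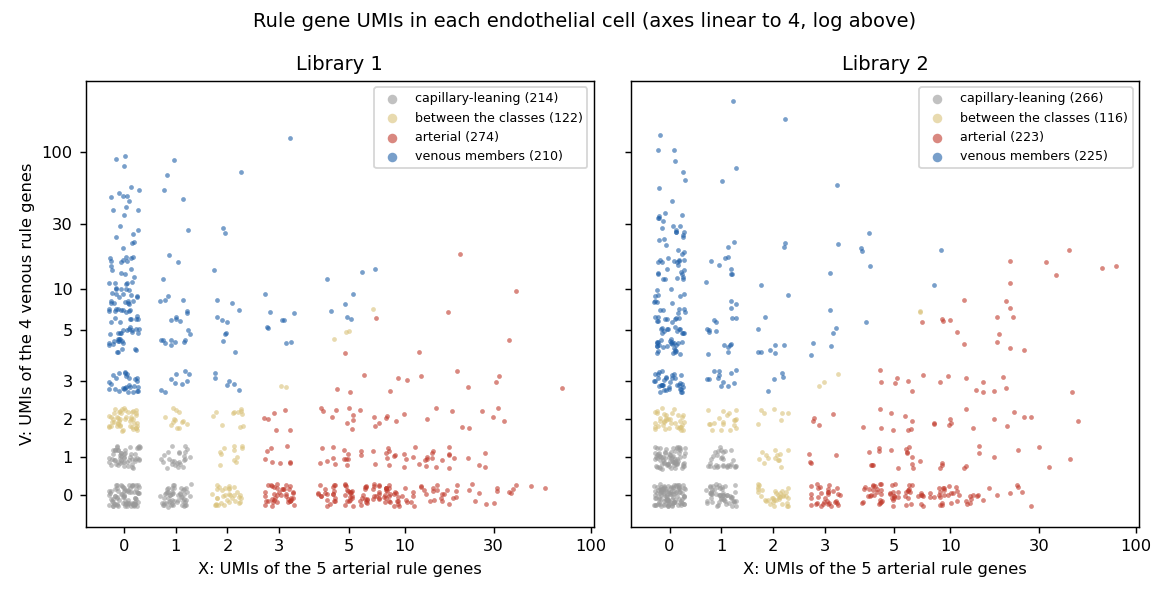
Each point is 1 of the 1650 endothelial cells of library 1 (left) or library 2 (right), with UMIs of the 5 arterial rule genes on the x axis and UMIs of the 4 venous rule genes on the y axis (both linear to 4 and logarithmic above, points jittered). Members (blue) grade into the cells between the classes at the threshold of 3 UMIs, and 285 of the 435 members lie at 0 arterial UMIs.

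Members carried transcripts of other cell types, at low counts in most cells and at high counts in a few. Of the members, 16 in library 1 (7.62%) and 26 in library 2 (11.6%) held at least 10 UMIs of microglial or macrophage, choroid plexus, astrocyte, neuronal, oligodendrocyte or Cajal-Retzius genes. Of these 6 types, astrocyte genes reached 10 UMIs in the most members, 11 and 13. Pericyte genes, counted apart, reached 10 UMIs in 18 and 19 members and haemoglobin and other erythroid genes in 26 and 9, and the alternatives that leave out cells with transcripts of the 6 types do not leave out these. A single member of library 2 held 2830 choroid plexus UMIs. The highest counts in 1 member were 10826 and 12763 UMIs for erythroid genes and 298 and 374 UMIs for astrocyte genes. Fibroblast genes summed to 2.49 and 6.26 CPM, with Dcn at 0, and blood leukocyte genes to 2.21 and 4.77 CPM, with Cd3e and Cd3d at 0. The doublet caller Scrublet marked 10 and 8 members. No member's barcode was shared between the libraries.

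Members were first compared with the 480 capillary-leaning cells (214 and 266), which asks what separates venous from capillary endothelium beyond the genes of the rule. UMIs were summed by class and library and tested with edgeR's quasi-likelihood test, with the library as a block and the rule genes left out. At an adjusted p of 0.05, 1148 of 10350 genes passed (11.1%), 590 higher in members (5.7%) and 558 lower (5.39%). The shares 5.7% and 5.39% are the background for every list count of this comparison. The test has 1 residual degree of freedom and its prior degrees of freedom were estimated as infinite, so the spread of a single gene between libraries carried no weight and its p-values are very small. With counts scaled to library totals in place of TMM, 991 genes were higher and 324 lower. DESeq2, on the same sums, called 111 of 7741 genes (1.43%). Its adjusted p is given beside the genes below, with both libraries' values.

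Venous markers outside the rule were higher in the members. Of 15 such genes, 12 were tested, 11 were higher, none was lower, and the median log2 fold change was 2.63, against -0.0016 over all genes tested. DESeq2 called 10 of the 11. These are known markers of brain veins, chosen with earlier results of these cells known, so the count describes the members and is not independent evidence.

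Vwf, which encodes the clotting protein von Willebrand factor, stood at 477 and 529 CPM in members, and at 99.5 and 133 CPM in capillary-leaning cells. Both member values lay above all 4 values of the other classes, since arterial cells held 121 and 158 CPM. The log2 fold change against capillary-leaning cells was 2.02 ± 0.08 (SE; 2.15 and 1.92 by library; DESeq2 adjusted p = 9.2e-32).

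Il1r1, the signalling receptor for interleukin-1, was at 182 and 117 CPM in members and at 19.9 and 21.7 CPM in capillary-leaning cells. It was 2.72 ± 0.16 higher on the log2 scale (DESeq2 adjusted p = 3.2e-14). Icam1, an adhesion molecule that binds leukocyte integrins, was at 235 and 398 CPM, against 51.8 and 50.8 CPM, a log2 fold change of 2.53 ± 0.11 (DESeq2 adjusted p = 1.2e-07). Adgrg6, an adhesion G-protein-coupled receptor, was at 53.0 and 55.8 CPM against 2.65 and 4.00 CPM. For these genes, too, the libraries of the 2 classes did not overlap.

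Smaller differences were measured for the other markers of the list. Tgm2, a transglutaminase, was at 244 and 220 CPM against 82.3 and 70.8 CPM (log2 fold change 1.51 ± 0.10), and Ctsc, a lysosomal protease, at 127 and 132 CPM against 35.8 and 30.3 CPM (1.89 ± 0.14). Tmem252 differed by 0.72 ± 0.09. Pltp, a phospholipid transfer protein, stood at 2673 and 2666 CPM in members and did not pass (0.06 ± 0.06, edgeR adjusted p = 0.62). Selp, Sele and Vcan had too few UMIs to be tested in this comparison.

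Several genes were close to absent in capillary-leaning cells. Lrg1, a secreted glycoprotein that modulates TGF-beta signalling, had 163 and 182 UMIs in members and 1 and 0 in capillary-leaning cells, a ratio of levels of 161 with an exact counting interval of 28.7 to 6382. Its UMIs lay in 21 and 30 members only. Ch25h, the enzyme that makes 25-hydroxycholesterol, had 125 and 129 UMIs, in 23 and 22 members, against 0 and 2 (ratio 59.3, interval 16.3 to 492). F5, which encodes coagulation factor V, was at 24.3 and 31.6 CPM with 2 UMIs in capillary-leaning cells (ratio 45.3, interval 12.4 to 377). The UMIs of F5 lay in 34 and 36 members.

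Ackr1, a chemokine-binding receptor known from venules, had 18 UMIs in 7 members of library 1 and 186 UMIs in 16 members of library 2, against 3 UMIs in capillary-leaning cells (ratio 31.8, interval 10.7 to 155). It passed edgeR's test but not DESeq2's (adjusted p = 0.62), and library 2 stood 11.2-fold above library 1 in the members, at 55.5 against 4.97 CPM. Vwf, Il1r1, Icam1, Adgrg6, Lrg1 and Ch25h passed in every alternative analysis of this comparison in which they could be tested, cells thinned to 1000 UMIs included.

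**Figure D2:**
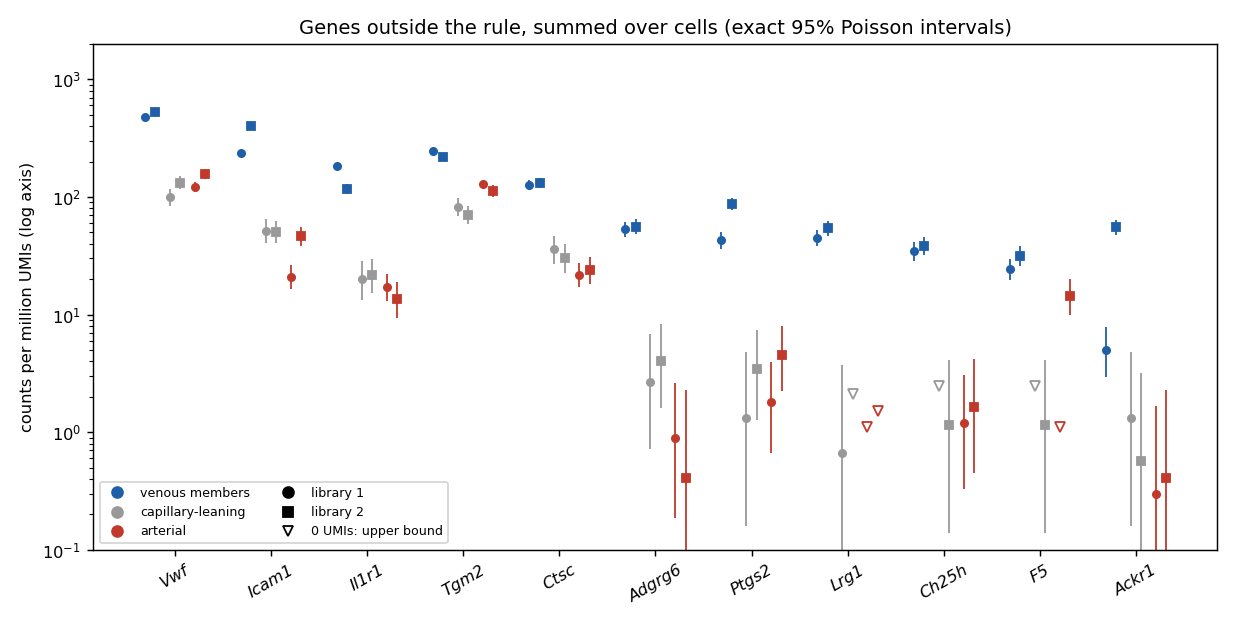
Levels in CPM (log axis) of 11 genes outside the rule, summed over the members (blue), capillary-leaning cells (grey) and arterial cells (red) of library 1 (circles) and library 2 (squares), with exact 95% Poisson intervals; open triangles are upper bounds at 0 UMIs. For Vwf, Icam1, Il1r1, Tgm2 and Ctsc the members lie above every value of the other classes, and Lrg1, Ch25h and Ptgs2 are far lower in both other classes, while the members of library 1 lie near the other classes for Ackr1.

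Of 24 tested genes of the cytokine and acute response, 11 were higher in members, none was lower and 13 did not pass, against 5.7% of all genes higher. The median log2 fold change of the list was 0.60. DESeq2 called 3 of the 11, Il1r1, Lrg1 and Nfkbiz. Nfkbiz, an inducible regulator of NF-kappaB target genes, was at 96.4 and 135 CPM against 49.1 and 50.3 CPM (1.13 ± 0.13, DESeq2 adjusted p = 0.011). Il6st, the shared signal-transducing receptor of the interleukin-6 family, was at 120 and 111 CPM against 57.1 and 63.4 CPM (0.84 ± 0.13), and its partner Il6ra at 44.7 and 40.3 CPM against 13.9 and 21.1 CPM (1.17 ± 0.21). Nfkbia, the inhibitor that NF-kappaB itself induces, was at 1277 and 1298 CPM against 1025 and 923 CPM (0.31 ± 0.06). Irf1, an interferon and NF-kappaB response factor, was at 54.9 and 91.2 CPM against 44.5 and 41.1 CPM (0.68 ± 0.16, DESeq2 adjusted p = 1.0).

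Among chemokines and growth factors, 3 genes were higher and 1 lower of 6 tested. Csf1, the growth factor of microglia and macrophages, was at 36.7 and 90.3 CPM in members and at 10.6 and 15.4 CPM in capillary-leaning cells (2.20 ± 0.21, DESeq2 adjusted p = 0.00039). Cxcl1, a neutrophil-attracting chemokine, was 0.78 ± 0.25 higher (DESeq2 adjusted p = 1.0). Cxcl2, of the same family, passed edgeR's test, but 56 of its 67 UMIs in library 2 lay in members with at least 10 macrophage UMIs, and its difference turned to -1.001 when Vcam1 was left out of the rule. Cxcl12, a chemokine of capillary and arterial endothelium, was the gene that fell: it stood at 735 and 905 CPM in members and at 2407 and 3505 CPM in capillary-leaning cells (-1.93 ± 0.06, DESeq2 adjusted p = 7.5e-102).

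Among 18 genes of shear and immediate early responses, which tissue dissociation can also induce, 3 were higher and 7 lower. Ier3, an early response gene, was at 567 and 796 CPM against 259 and 462 CPM (0.85 ± 0.07), and Zfp36, which destabilises cytokine mRNAs, at 747 and 683 CPM against 423 and 420 CPM (0.67 ± 0.07). Fos was lower, at 918 and 975 CPM against 1141 and 1310 CPM (-0.46 ± 0.06), as was the heat shock gene Hspa1a (-0.45 ± 0.06). The list's median was 0.0015, so its genes did not move one way.

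The promoters of the 33 genes called higher in the venous marker, adhesion, chemokine, cytokine, haemostasis and immediate early lists were read from RefSeq (GRCm38.p6). Of these, 26 were in the promoter table. The kappaB consensus was searched on both strands in the 250 bases before the start and was found for 6 of the 26 (23.1%), and for 1894 of all 27025 promoters (7.01%). The motif was chosen after the lists' values were seen, so these shares are a description and no comparison is drawn from them. The windows of the 6 genes are shown as the promoter letters of genes called higher by edgeR, of which DESeq2 called Csf1 and Ier3, with the matched letters in capitals as they read 5′ to 3′ on the strand of the gene.
Csf1: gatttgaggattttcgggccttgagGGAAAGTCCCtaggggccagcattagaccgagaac
Cxcl1: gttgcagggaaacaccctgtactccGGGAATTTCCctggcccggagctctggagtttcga
Cxcl2: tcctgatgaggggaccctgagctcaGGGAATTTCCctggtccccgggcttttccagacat
Ier3: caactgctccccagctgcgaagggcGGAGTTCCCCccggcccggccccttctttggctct
Irf1: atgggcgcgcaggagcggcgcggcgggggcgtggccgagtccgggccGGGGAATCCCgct
Nfkbia: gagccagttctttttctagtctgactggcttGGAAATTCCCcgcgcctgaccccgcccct
They lie at chr3:107760589-107760648 (minus strand), chr5:90891149-90891208 (plus), chr5:90903777-90903836 (plus), chr17:35821596-35821655 (plus), chr11:53769954-53770013 (plus) and chr12:55492648-55492707 (minus), in the order above. Cxcl1 and Cxcl2, which neighbour each other on chromosome 5, show the same matched letters. A match describes letters in a window and is not a site of binding.

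Genes of haemostasis and prostanoid synthesis were higher for 7 of 15 tested and lower for none, against 5.7% of all genes higher, with a median log2 fold change of 0.34. DESeq2 called Vwf, Thbd and Ptgs2. Ptgs2, the inducible cyclooxygenase, was at 42.8 and 87.7 CPM in members and at 1.33 and 3.43 CPM in capillary-leaning cells (4.66 ± 0.31, DESeq2 adjusted p = 9.8e-10). It was seen in 33 and 34 members. Ptgis, prostacyclin synthase, was at 8.84 and 18.5 CPM against 0.663 and 2.86 CPM. Thbd, the endothelial anticoagulant receptor thrombomodulin, was at 276 and 148 CPM against 130 and 100 CPM (0.76 ± 0.10, DESeq2 adjusted p = 0.040). Arterial cells held Thbd at 200 and 152 CPM.

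Of 11 leukocyte adhesion genes tested, Icam1, Ackr1 and Alcam were higher and Cd34 was lower; the list's median was 0.04. Among vein specification genes and receptors, 4 of 7 were higher and 1 was lower. Nrp2, a co-receptor of VEGF-C and semaphorins, was at 97.7 and 88.0 CPM against 39.1 and 48.6 CPM (0.98 ± 0.15). Ephb4, the venous receptor for ephrin-B2, was at 110 and 85.9 CPM against 56.4 and 50.8 CPM (0.77 ± 0.14). Aplnr, the apelin receptor, differed by 0.85 ± 0.23, and Tek, the angiopoietin receptor, by 0.29 ± 0.08. Emcn, a sialomucin that limits leukocyte adhesion, was lower, at 372 and 307 CPM against 516 and 530 CPM (-0.72 ± 0.07, DESeq2 adjusted p = 2.2e-05). DESeq2 called Emcn only. Against arterial cells, 3 of the 7 genes were higher in members and 1 was lower. Tek stood at 350 and 329 CPM in arterial cells and at 315 and 317 CPM in members. Of 12 genes of the VEGF, angiopoietin and apelin system, 5 were higher and 3 lower in members than in capillary-leaning cells. The lower ones were Nrp1, a VEGF co-receptor (-0.37 ± 0.07), Angpt2, a ligand of Tek (-0.82 ± 0.21), and Pgf, placental growth factor.

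Capillary markers did not move one way: 4 of 11 were higher and 5 lower, with a median of -0.02. Cxcl12 and Rgcc fell most, Rgcc from 729 and 473 CPM in capillary-leaning cells to 455 and 187 CPM in members (-1.07 ± 0.07). Ivns1abp was at 81.2 and 77.8 CPM against 141 and 145 CPM (-0.94 ± 0.11). Mfsd2a, the lipid transporter that suppresses transcytosis at the blood-brain barrier, was lower by a smaller amount (-0.39 ± 0.07, DESeq2 adjusted p = 0.13), as was Slc7a5 (-0.23 ± 0.08). Kdr, Car4, Slc16a1 and Slc22a8 were the 4 that were higher, by 0.18 to 0.41. With cells thinned to 1000 UMIs, Kdr (-0.078) and Slc7a5 (0.043) changed sign.

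Barrier transporters differed in both directions from capillary-leaning cells. Of 22 tested, 6 were higher and 4 lower, against 5.7% of all genes higher and 5.39% lower, and the list's median was 0.11. Slc2a1, the glucose transporter GLUT1, was at 4319 and 2716 CPM in members, against 3116 and 1966 CPM (0.38 ± 0.06, DESeq2 adjusted p = 1.0e-04). Slc1a1, a glutamate transporter, was lower (-0.42 ± 0.08). Of 12 junction and vesicle genes, 5 were higher and 1 lower, among them Tjp1, which encodes the tight junction protein ZO-1 (0.36 ± 0.06), and Cavin1, a coat protein of caveolae (340 and 332 CPM against 201 and 222 CPM, 0.58 ± 0.08). Plvap, the diaphragm protein of fenestrated endothelium, had 0 UMIs in both classes of library 1 and was lower in the members of library 2, at 6.56 against 30.8 CPM.

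Among 19 genes of the Wnt and beta-catenin programme that maintains the barrier, Fzd4, Adgra2, Lef1 and Tnfrsf19 were higher, by 0.25 to 0.41, and Notum was lower (-0.42 ± 0.14); DESeq2 called none. Of 15 BMP and TGF-beta genes, Id1 (-0.48 ± 0.06), Id3 (-0.48 ± 0.06) and Smad7 (-0.29 ± 0.08) were lower, all targets of BMP signalling, and Tgfbr3 was higher (0.50 ± 0.14). Of 14 basement membrane and matrix genes, 2 were higher and 3 lower. Fn1, fibronectin, was at 1389 and 1560 CPM against 805 and 691 CPM (0.89 ± 0.06) and Lama4 differed by 0.46 ± 0.15, while Hspg2, Sparcl1 and Vwa1 were lower.

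Of 17 MHC and interferon genes tested, 3 were higher and 3 lower. H2-K1, an MHC class I heavy chain, was at 347 and 365 CPM against 226 and 233 CPM (0.54 ± 0.08), with 319 and 341 CPM in arterial cells. H2-D1 and Ifitm3 differed from capillary-leaning cells by 0.20 and 0.23. Ly6c1, a surface protein of brain endothelium, was at 3118 and 2927 CPM against 4904 and 4773 CPM (-0.77 ± 0.05, DESeq2 adjusted p = 9.1e-25). Ly6a (-0.31 ± 0.06) and Irf7 (-0.69 ± 0.15) were lower as well. The MHC class II genes Cd74, H2-Aa, H2-Ab1 and H2-Eb1 had too few UMIs to be tested.

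Among the largest differences were genes of other cells. Reln, a gene of Cajal-Retzius neurons, had 178 UMIs in members and 1 in capillary-leaning cells (ratio 83.1, interval 14.7 to 3302), and lay in 4 and 3 members. The haemoglobin genes Hba-a1, Hba-a2 and Hbb-bs were lower in members, Hbb-bs at 9127 and 7069 CPM against 31349 and 13239 CPM, and DESeq2 called none of them (adjusted p = 0.062 for Hbb-bs). The erythroid list summed to 16404 and 13114 CPM in members and to 59050 and 23957 CPM in capillary-leaning cells. With cells over 1% Ttr or haemoglobin UMIs left out, 1017 genes were called. Of the 1148 genes called with all cells, 984 were called again and 2 changed sign. The part of erythroid transcripts in other differences was not tested further. Neurod1, a neuronal transcription factor, was at 6.07 and 17.3 CPM against 48.4 and 26.3 CPM, and Cd24a, of immature neurons and other cells, at 5.25 and 12.5 CPM against 24.5 and 34.8 CPM. Rgs5, a pericyte gene, was at 147 and 218 CPM against 271 and 278 CPM (-0.69 ± 0.08). Of the others, the arterial guidance receptor Unc5b fell from 33.8 and 34.3 CPM to 10.5 and 7.75 CPM (-1.99 ± 0.26), and Tcim was at 51.4 and 20.9 CPM against 123 and 98.8 CPM (-1.75 ± 0.14).

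**Figure D3:**
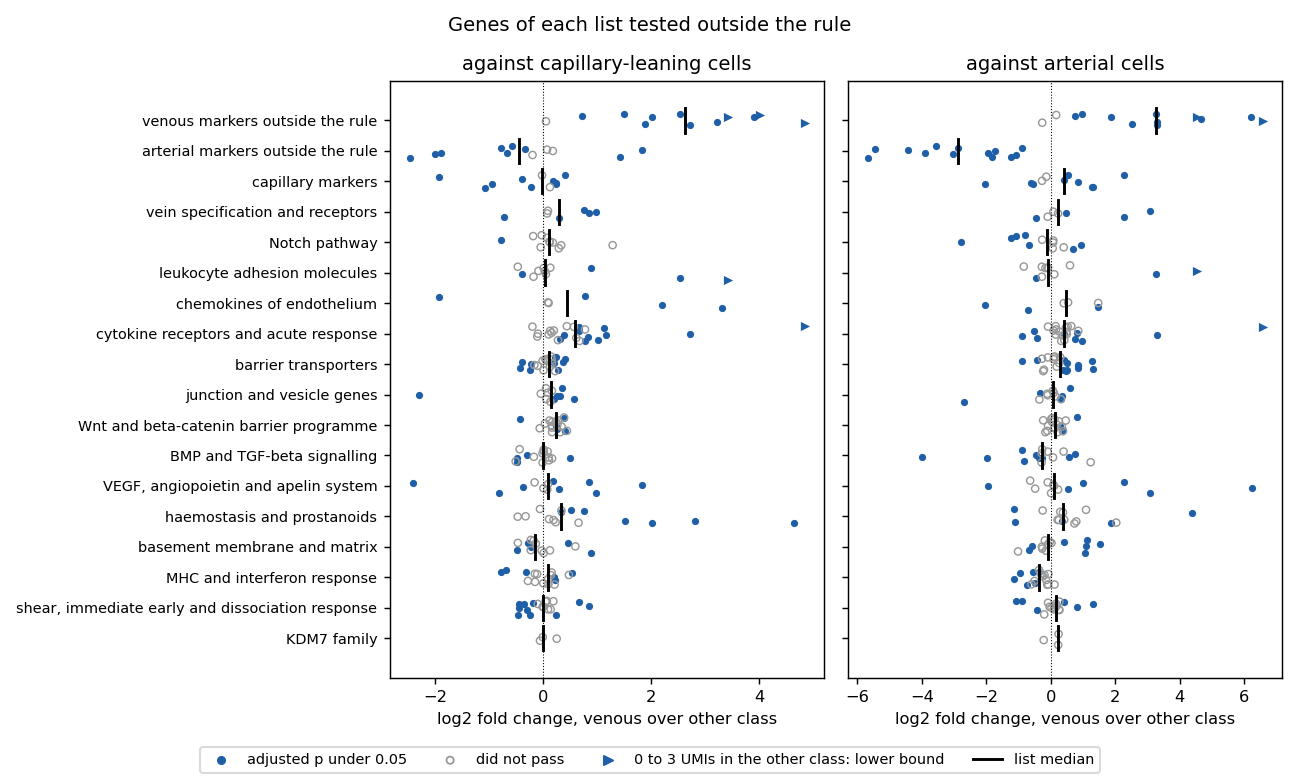
Log2 fold change of each tested gene outside the rule, by gene list, for members against capillary-leaning cells (left) and against arterial cells (right); filled points passed edgeR's adjusted p of 0.05, open points did not, triangles are lower counting bounds for genes with 0 to 3 UMIs in the other class, and black bars are list medians. Venous markers lie to the right in both panels (medians 2.63 and 3.27), arterial markers lie to the left against arterial cells (median -2.87), and most other lists straddle 0.

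Members were next compared with the 497 arterial cells (274 and 223), the opposite end of the vessel tree. Of 10926 genes, 1026 passed (9.39%), 505 higher in members (4.62%) and 521 lower (4.77%), and DESeq2 called 463 of 10292 (4.5%). The shares 4.62% and 4.77% are the background for every list count against arterial cells. Members enter both comparisons, so the same member values stand behind both, and the 2 sets of results are not independent.

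All 13 arterial markers outside the rule that could be tested were lower in members, with a median log2 fold change of -2.87 against 0.0024 over all genes, and DESeq2 called the same number. The arterial cells were chosen by other known arterial genes. Markers near 0 in members, such as Alpl and Fbln5, entered the test through the arterial cells. The count therefore describes the 2 classes and is not independent evidence. Fbln5, an elastic fibre protein, was at 0.552 and 3.28 CPM in members and at 46.5 and 153 CPM in arterial cells (-5.67 ± 0.21). Mgp, matrix Gla protein, an inhibitor of calcification and BMP, was at 25.96 and 109 CPM against 432 and 1566 CPM (-3.91 ± 0.09). Alpl, alkaline phosphatase, was at 1.38 and 4.77 CPM against 126 and 142 CPM (-5.46 ± 0.25). Edn1, endothelin-1, was lower too, at 139 and 185 CPM against 486 and 577 CPM (-1.72 ± 0.08).

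The largest decreases outside that list included Fbln2, a matrix protein at 3.87 and 4.47 CPM against 148 and 171 CPM (-5.24 ± 0.15), and Col18a1, a basement membrane collagen, at 0.828 and 2.39 CPM against 49.2 and 62.4 CPM. Gask1b (-5.19 ± 0.36), the unnamed transcript Gm9946 (-5.00 ± 0.23) and Ccn3, a matricellular protein (-4.78 ± 0.25), were close in size. Ssu2 had 3 UMIs in members and 132 in arterial cells, a ratio of 53.2 (interval 17.8 to 261). Every one of these genes fell in both libraries.

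Against capillary-leaning cells, the arterial list was split: 7 of 12 were lower, with a median of -0.44, and Vegfc and Eln were higher. Vegfc was at 11.6 and 7.75 CPM in members, 2.65 and 2.29 CPM in capillary-leaning cells and 31.5 and 46.4 CPM in arterial cells. Eln, elastin, was at 18.5 and 23.9 CPM, 7.30 and 7.43 CPM, and 79.4 and 257 CPM in the same order. Both genes were thus intermediate in members.

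Venous markers outside the rule were higher for 11 of 13 against arterial cells and lower for none (median 3.27). Lrg1 had 0 UMIs in arterial cells, so its level in members was at least 95.2-fold higher, taking 3 UMIs over the group as the limit that a count of 0 allows. Adgrg6 was at 0.899 and 0.410 CPM in arterial cells (6.21 ± 0.29), and Ch25h and Ptgs2 differed by 4.67 ± 0.27 and 4.38 ± 0.20. Rnase4, a secreted ribonuclease, was at 159 and 162 CPM in members and at 11.4 and 10.3 CPM in arterial cells (3.88 ± 0.13), and Ang, the angiogenin gene that shares its promoters, at 34.2 and 31.3 CPM against 2.70 and 1.23 CPM (3.98 ± 0.29). Fmo2, a flavin monooxygenase, was at 43.1 and 24.4 CPM against 2.10 and 0.410 CPM (4.64 ± 0.32).

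Apln, the ligand apelin, was at 70.7 and 33.1 CPM in members and at 1.20 and 0 CPM in arterial cells (6.23 ± 0.36), but did not differ beyond the test from capillary-leaning cells, which held 61.7 and 44.0 CPM (-0.15 ± 0.16, edgeR adjusted p = 0.63). Its UMIs lay in 8 and 14 members, and a single cell of library 1 held 150 of the 256 UMIs found there. Its receptor Aplnr was higher in members against both classes.

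Of 12 Notch pathway genes, 5 were lower in members than in arterial cells and 2 were higher. The ligands Dll4 (-1.24 ± 0.14), Jag1 (-1.08 ± 0.10) and Jag2 (-0.81 ± 0.08), the receptor Notch1 (295 and 236 CPM against 491 and 357 CPM, -0.67 ± 0.07) and the target Hey2 were lower. The target Hes1, at 350 and 626 CPM against 199 and 306 CPM, was higher (0.93 ± 0.08), as was Lfng, a glycosyltransferase that modifies Notch (0.69 ± 0.13). Against capillary-leaning cells only Dll4 passed (-0.77 ± 0.18).

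Barrier transporters were higher in members than in arterial cells for 10 of 22 genes and lower for 2 (median 0.28). Over all genes, 4.62% were higher and 4.77% lower, which is the background for each list here. Capillary markers gave 6 higher and 3 lower of 11, with Car4, a carbonic anhydrase, at 1173 and 1107 CPM against 272 and 202 CPM (2.28 ± 0.10), Tfrc, the transferrin receptor, at 899 and 1174 CPM against 352 and 501 CPM (1.29 ± 0.07), and Slc16a1, a monocarboxylate transporter, higher by 1.29 ± 0.07. Of 16 BMP and TGF-beta genes, 7 were lower and 2 higher, and of 17 MHC and interferon genes 6 were lower and none higher. Cxcl12 was lower against arterial cells as well (-2.05 ± 0.06).

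The members differed among themselves in which rule gene led. Slc38a5 held the most venous UMIs in 141 and 137 members, Nr2f2 in 42 and 45, Lcn2 in 9 and 10 and Vcam1 in 4 and 16, and the rest were ties. Lcn2-led and Vcam1-led members were too few to be tested, so their 13 and 26 cells are described together. These cells held a median of 25 and 27.5 venous UMIs, against 6 and 5 in Slc38a5-led members. Which gene led and how many venous UMIs a cell held cannot be told apart here. They held Ptgs2 at 318 and 425 CPM, where Slc38a5-led members held 23.4 and 20.1 CPM. Icam1 stood at 456 and 1065 CPM against 199 and 310 CPM, and Vwf at 984 and 1282 CPM against 429 and 370 CPM. Lrg1 (402 and 187 against 21.3 and 17.4 CPM) and Ch25h (252 and 183 against 14.6 and 2.64 CPM) followed the same order.

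All of these values were higher in the Lcn2- or Vcam1-led cells in both libraries. In library 1 a single cell held 31 of their 42 Ch25h UMIs and a single cell 30 of their 53 Ptgs2 UMIs, and without the top cell the levels were 79.4 CPM for Ch25h and 150 CPM for Ptgs2. Leaving out the cells with at least 10 UMIs of any of those 6 cell types, the Lcn2- or Vcam1-led cells of library 1 and library 2 held 361 and 619 CPM of Ptgs2 and 517 and 1078 CPM of Icam1. Csf1 did not follow them, with 1 UMI in the Lcn2- or Vcam1-led cells of library 1 and 205 CPM in those of library 2.

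**Figure D4:**
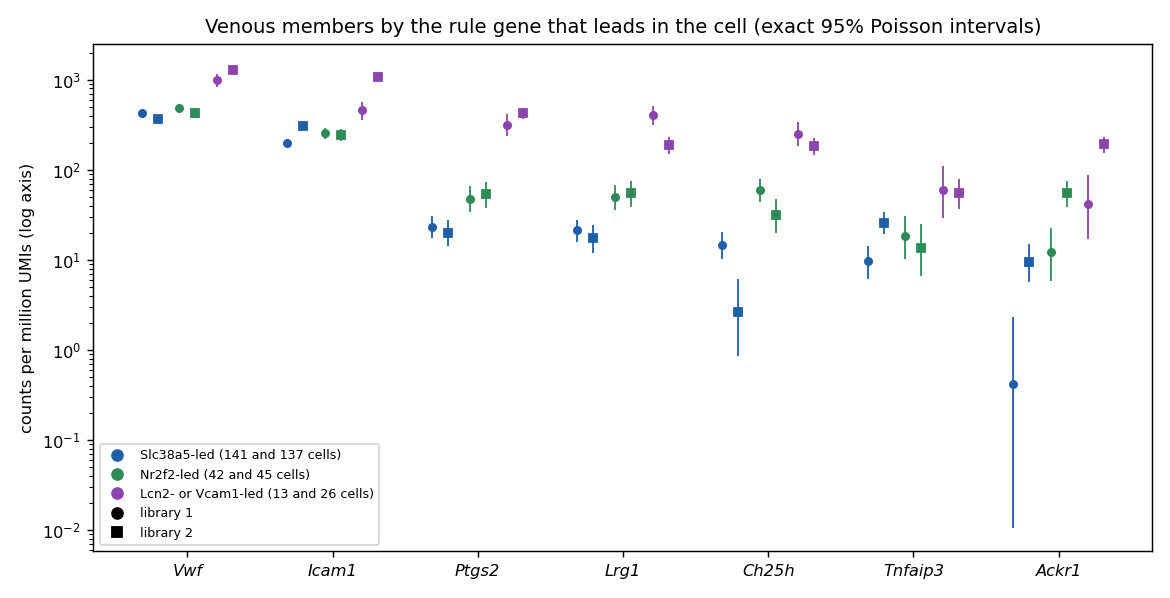
Levels in CPM (log axis) of 7 genes outside the rule in Slc38a5-led (blue), Nr2f2-led (green) and Lcn2- or Vcam1-led (purple) members of library 1 (circles) and library 2 (squares), with exact 95% Poisson intervals. The 13 and 26 Lcn2- or Vcam1-led cells lie highest in each library for each gene, and Nr2f2-led cells lie above Slc38a5-led cells for Lrg1, Ch25h, Ptgs2 and Ackr1.

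The number of venous UMIs in a cell went with the same genes. Members with exactly 3 venous UMIs held Vwf at 164 and 228 CPM, and members with 10 or more at 818 and 759 CPM. For Icam1 the levels were 122 and 116 against 389 and 633 CPM. Lrg1 had 0 and 1 UMI in members at the threshold, against 90.9 and 98.4 CPM in members with 10 or more. The members at the threshold held more Vwf and Icam1 than the capillary-leaning cells did, but their Icam1 was near its level in free RNA (119 and 114 CPM). Other venous markers were closer to the capillary-leaning cells. Il1r1 was at 70.9 and 24.4 CPM against 19.9 and 21.7 CPM there, and Adgrg6 at 5.91 and 4.06 CPM against 2.65 and 4.00 CPM. Depth differed between these groups as given above, and its part was not tested.

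Nr2f2-led members (42 and 45) were tested against Slc38a5-led members (141 and 137), a comparison added after the class sizes were seen. Of 9129 genes, 357 passed edgeR's test (3.91%), 264 higher in Nr2f2-led members (2.89%) and 93 lower (1.02%), and DESeq2 called 58 (0.635%). The largest increases were neuronal genes: Reln, the secreted protein of Cajal-Retzius neurons, had 177 UMIs in Nr2f2-led and 1 in Slc38a5-led members, and Ly6h had 36 and 0, at least 33.3-fold higher. Snhg11, Meg3 and Nhlh2 made up the rest of the 5 largest. They came with 8 Nr2f2-led members, 4 in each library, that held at least 10 UMIs of Cajal-Retzius genes. Of these 8 members, 7 were also marked by Scrublet.

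Without the cells that hold at least 10 UMIs of any of the 6 cell types counted above (9 in each library among Nr2f2-led members, 6 and 9 among Slc38a5-led members), 56 of 8434 genes passed (0.664%), 33 higher and 23 lower, 37 of them also called with all cells. Without the cells marked by Scrublet, 44 of 8744 passed (0.503%). Ch25h (2.60 in log2 without those of other cell types, 2.37 ± 0.33 with all cells), Lrg1 (1.64 and 1.39 ± 0.26) and Ptgs2 (1.47 and 1.18 ± 0.26) were higher in Nr2f2-led members in both analyses. These genes were singled out after their values were seen, and with all cells DESeq2 called neither Lrg1 nor Ptgs2. Without its top cell, the level in Nr2f2-led members of library 1 was 29.3 CPM for Ch25h and 24.2 CPM for Ptgs2, against 14.6 and 23.4 CPM in all Slc38a5-led members of that library. With the top Slc38a5-led cell left out as well, the latter levels were 11.5 and 17.8 CPM. In all, 30 genes passed with all cells and after leaving out, in turn, Cajal-Retzius, other-type and Scrublet-marked cells. Vwf (0.15 ± 0.10) and Icam1 (-0.03 ± 0.11) did not pass with all cells, so there their levels were not shown to depend on which of these genes led. Without the cells of other types, Vwf stood at 569 and 528 CPM in Nr2f2-led and 396 and 363 CPM in Slc38a5-led members. With the top cell of each group left out as well, these Vwf levels were 476 and 381 against 356 and 340 CPM. Icam1 without the cells of other types stood at 188 and 300 against 192 and 317 CPM. Ackr1 passed as well (2.81 ± 0.44), at 12.3 and 54.6 CPM in Nr2f2-led and 0.417 and 9.51 CPM in Slc38a5-led members, but 1 cell held 36 of the 40 UMIs of the Nr2f2-led members of library 2. In the Slc38a5-led members of that library, 1 cell held 14 of the 18 UMIs. Without the top cell of each group, the levels in library 2 were 5.71 CPM in Nr2f2-led and 2.13 CPM in Slc38a5-led members. Of the 13 venous markers tested here, Ackr1, Ch25h and Lrg1 were higher, Pltp was lower (-0.29 ± 0.07) and 9 did not pass, with a median of 0.17, and DESeq2 called Ackr1 and Ch25h. Over all genes, 2.89% were higher and 1.02% lower.

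With all cells, the genes lower in Nr2f2-led members included 7 of 11 capillary markers and 6 of 22 barrier transporters, with none higher in either list. The list medians were -0.36 and -0.22, against -0.0035 over all genes. Over all genes, 1.02% were lower. At least 10 UMIs of another cell type were held by 9 of 42 and 9 of 45 Nr2f2-led members. Among Slc38a5-led members, 6 of 141 and 9 of 137 did so. Without these cells, 23 genes were lower in place of 93, and 16 were lower in all 4 analyses. The 2 lists were not counted again without these cells, so their part in the list counts was not tested. Slco1c1, a thyroid hormone transporter, was at 845 and 915 CPM against 1176 and 1354 CPM (-0.55 ± 0.08), and Tfrc at 779 and 1015 CPM against 979 and 1409 CPM (-0.43 ± 0.08). DESeq2 called no gene of either list, and Cxcl12, one of the 7, was lower in library 1 only. Among the 5 largest decreases, Ism1 (15.97 and 19.1 against 44.2 and 43.9 CPM), 2810454H06Rik and Stk17b were spread over both libraries, while a single Slc38a5-led cell held 48 of the UMIs of Hopx and the decrease of Apln lay in library 1 (-3.98 on the log2 scale, against -0.16 in library 2).

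Phf2 (chromosome 13, 48801750 to 48870885), the gene targeted in the study, was at 34.0 and 30.1 CPM in members, 23.2 and 26.8 CPM in capillary-leaning cells and 26.7 and 27.9 CPM in arterial cells. No difference was detectable (0.26 ± 0.21, edgeR adjusted p = 0.52, and 0.24 ± 0.15, adjusted p = 0.44). The related demethylase genes Phf8 (19.6 and 21.2 CPM) and Kdm7a (77.0 and 75.7 CPM) did not pass either.

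Between libraries, the Poisson intervals of the members were apart for 55 of the 118 genes named by rule. For 25 of these the capillary-leaning cells were apart too, 23 in the same direction. The named genes were chosen by their change or level, and no share over all genes was computed. The intervals also leave out the spread between cells, so these counts are not read as a difference between the libraries. Library 2 held more Vcam1, Ackr1, Icam1, Csf1 and Ptgs2 in its members, and library 1 more Il1r1 and Thbd. With 1 library per genotype and no map from suffix to genotype, the library, the mice and the genotype cannot be told apart in these values.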

How the data were processed

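The deposited matrix holds UMI counts of 32285 genes for all barcodes. Per the submitters' processing notes, the authors used Cell Ranger 4.0.0, Scanpy 1.7.0 and mm10, with no role or order given for these names. Per the labels, the libraries are 10x Chromium 3′ libraries of 2 samples. Barcodes with at least 1000 UMIs and 500 genes and at most 20% mitochondrial UMIs were kept (8255 and 8381). The libraries hold 102897659 and 107266420 UMIs in all. Scrublet (expected rate 0.06, in scanpy 1.11.5) marked 226 and 252 kept barcodes, which were not removed except as an alternative. The 2 libraries share 23 kept barcode sequences, none of them a member's.

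Raw UMIs were summed by class and library. edgeR 4.0.16 (filterByExpr, TMM, glmQLFit, glmQLFTest; R 4.3.3) fitted class with library as a block, with Benjamini-Hochberg adjustment over all genes tested; 23 rule genes stayed in library sizes and out of the test. DESeq2 1.42.0 was the alternative test. The scripts were tested on simulated data. The prior degrees of freedom were infinite against capillary-leaning cells and within the members, and 5.34 against arterial cells. The test weighs the class difference of a gene against how that difference varies between the 2 libraries, with the block taken out. Where the prior degrees of freedom were infinite, this spread was taken from all genes together. The 2 libraries are not known to be replicates of a condition.

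The members and the gene lists were chosen with earlier results of these data known. The genes named were the 8 largest changes each way (5 within the members) among called genes with the same sign in both libraries and at least 20 CPM in the higher class, up to 4 genes of each list, and Phf2, Phf8 and Kdm7a, 118 genes in all, of which 1 is not reported here. Other genes named, such as Ctsc, Tgm2, Tmem252, Pltp, Il6ra, Nfkbia, Irf1, Aplnr, Vegfc, Slc7a5, Kdr, Car4, Slc22a8, Jag1, Hey2, Lfng, Notum, Lama4, H2-D1, Ifitm3, Mgp, Slco1c1 and Tfrc, were chosen after their values were seen. A planned comparison of Vcam1-led members was replaced by that of Nr2f2-led members, because Vcam1-led members numbered 4 and 16, under the minimum of 20 in a library. Promoters came from RefSeq (GRCm38.p6); 7 of the 33 genes looked up were not in the table used.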

Additional observations from a re-analysis of the deposited data

How the results depend on the processing

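The precision is limited by 1 library per genotype, 1 residual degree of freedom and the depth of single cells. The cause of the changes below was not tested, except that thinning, depth windows and stricter gates use fewer UMIs or cells.

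Against capillary-leaning cells, in place of 1148 genes, the alternatives called 111 (DESeq2), 78 (cells thinned to 1000 UMIs), 64 (without the library block), 301 (cells of 5000 to 20000 UMIs), 362 (no UMI in the 5 excluded pairs) and 1723 (all other endothelial cells as comparison). Of the 1148 genes, 77 were called again after thinning, 276 in cells of 5000 to 20000 UMIs and 319 with no UMI in the excluded pairs. With all other endothelial cells as comparison, 739 of them were called again and 56 changed sign. Without the filter on low counts the split was 641 higher and 384 lower, and without the library block 52 and 12. Against arterial cells, in place of 1026, the counts were 463 (DESeq2), 324 (thinned), 348 (without the library block), 1561 (no filter on low counts), 1747 (without Cajal-Retzius transcripts), 1929 (without other cell types' transcripts) and 2055 (without Scrublet's doublets). Within the members, in place of 357, they were 58 (DESeq2), 1 (thinned), 121 (without the library block), 64 (5000 to 20000 UMIs), 79, 56 and 44 (without the same cells). The library block is the paired fit, since each library holds every class.

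Log2 fold changes that turned sign against capillary-leaning cells with all other endothelial cells as comparison were Apln (1.19), Eln (-2.03), H2-D1 (-0.0091), Hes1 (0.39), Ifitm3 (-0.093), Jag1 (-0.63), Jag2 (-0.50), Mgp (-3.10), Slc7a5 (0.049), Sparcl1 (0.086) and Vegfc (-1.14). Thinning turned Kdr (-0.078) and Slc7a5 (0.043), and leaving Vcam1 out of the rule turned Cxcl2 (-1.001). Meg3 turned without Cajal-Retzius transcripts (-3.19, and -2.40 against arterial cells) and without other cell types' transcripts (-1.43), and Hopx without other cell types' transcripts (-0.32) and with no UMI in the excluded pairs (-0.0019). Without cells rich in Ttr or haemoglobin, Hba-a1 (-0.94) and Hba-a2 (-0.74) turned against arterial cells. Within the members, Hba-a2 and Hbb-bs turned without those cells (-0.18 and -0.31), in cells of 5000 to 20000 UMIs (-2.09 and -2.06) and Apln in cells of 5000 to 20000 UMIs (0.50). Leaving out either library gave values from -0.39 to 0.86 for Hba-a2, -0.16 to 0.57 for Hbb-bs and -1.27 to 0.32 for Cxcl12, each negative in library 1 or 2 alone and positive in the other.

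The members' share of endothelial cells was 20.4% and 21.0% with at least 4 venous UMIs, 33.0% and 33.9% with at least 2, 21.2% and 23.8% with no UMI in the excluded pairs, and 22.6% in library 1 in cells of 5000 to 20000 UMIs. Of 2162 alternative values of named genes against capillary-leaning cells, 1864 kept their direction and side of the threshold, as did 1833 of 2023 against arterial cells and 317 of 456 within the members. The planned comparison of Vcam1-led members was not run, since they numbered 4 and 16, and the comparison of Nr2f2-led members was not run with no UMI in the excluded pairs, which left 18 cells in library 1.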
